A study of Mus musculus with 23 samples.

Results

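KRAB zinc finger genes lie in the mouse genome in large tandem clusters, and 3 of these were examined for DNA methylation in the epiblast (Epi) and the extra-embryonic ectoderm (ExE) of early post-implantation embryos. The clusters were taken as fixed intervals of GRCm38, on chromosome 2 from 175 to 178.2 Mb, on chromosome 4 from 145 to 147.9 Mb and on chromosome 13 from 65 to 67.9 Mb. A window belonged to a cluster when its midpoint lay in one of these intervals. At E6.5, 676 of 333984 windows met this rule (116, 268 and 292 on chromosomes 2, 4 and 13), and at E7.5, 909 of 402812 windows did (181, 346 and 382). The E7.5 table of separate parental alleles has the same windows as the E7.5 table of all reads.

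Methylation was measured by post-bisulphite adaptor tagging (PBAT) in 23 libraries and was deposited as the percentage of methylated CpG calls in each window. Neighbouring windows do not overlap and were set to hold 100 observed CpG positions, which over both strands comes to a median of 61 CpG dinucleotides per cluster window at E6.5 and 50 at E7.5. At E6.5 each library was a pool of 4 epiblasts or 8 ExE, and at E7.5 it came from a single embryo, with the tissues separated by hand. The deposited values give no read numbers, so the depth behind a window is unknown and no counting interval can be given.

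Crosses are written with the mother first. B6/CAST embryos had a C57BL/6 mother and a CAST father, and CAST/B6 embryos the reverse. At E6.5 there were 3 Epi and 2 ExE libraries of each of these crosses, and at E7.5 there were 2 libraries in each of the 4 groups of cross and tissue. The maternal knockout, matDKO/CAST, was profiled at E6.5 only, in 2 Epi and 3 ExE libraries. Its mothers lacked Dnmt3a and Dnmt3b in the oocyte, through floxed alleles and Cre driven by the oocyte promoter Zp3, and their background also held 129 alleles, which the B6/CAST controls did not. The embryos themselves inherited working copies from the CAST father. All embryos of the study carry 1 CAST genome.

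KRAB zinc finger proteins bind DNA through a tandem array of C2H2 zinc fingers, and their KRAB domain recruits TRIM28, which brings histone H3 lysine 9 methylation and silencing to the bound site. Many of them bind retrotransposons, and in the early embryo this silencing is coupled to DNA methylation. The genes multiply by tandem duplication, so neighbouring copies resemble each other and their number differs between mouse strains. DNMT3A and DNMT3B are the enzymes that lay down new DNA methylation, first in the oocyte and again in the embryo around implantation, when the epiblast becomes more methylated than the extra-embryonic ectoderm.

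In the GENCODE annotation the 3 intervals hold 360 genes, of which 121 are protein coding and 187 are pseudogenes. By their symbol (Zfp, Rsl1 or Rex2), 54 are zinc finger genes, with 10, 19 and 25 on chromosomes 2, 4 and 13. When the annotated coding sequences were translated instead, 86 genes had at least 3 C2H2 fingers, with a median of 13 and a maximum of 30, and 36 of these also matched a KRAB motif, none on chromosome 2, while a wider form of the motif, added after seeing the data, matched 72. The clusters repeat themselves. Of the 75-base words in a cluster, 78.1% on chromosome 2, 44.8% on chromosome 4 and 37.1% on chromosome 13 recurred within that cluster. In 143 tiles of like size outside, each searched within itself, the median was 2.79% and the highest value 45.6%. The chromosome 4 and 13 clusters were thus below the highest outside tile, but above the 90th percentile of the tiles, which was 6.36%. Cluster windows were longer than autosomal windows elsewhere at E7.5, with a median of 6807 against 5212 bases, and on chromosome 2 the median was 8214 bases and the longest window 271366 bases. Mean levels and differences of the clusters were therefore set against autosomal windows of like length, in which windows outside the clusters were weighted to the length distribution of the cluster windows. Shares of windows called, non-overlapping or complete were set against windows of every length.

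Promoters of the cluster genes are shown here because the promoter windows ranged from 4.39 to 86.9% methylation in the E7.5 epiblast. The sequences run from 250 bases before to 50 bases after the RefSeq start of transcription (GRCm38.p6), 5′ to 3′ in the direction of the gene, with each CG in capitals; CG reads the same on the other strand, and neighbouring CG do not overlap. Of the 88 genes called zinc finger genes by symbol or by sequence, 65 matched an entry. For each cluster the sequence with the lowest and the one with the highest epiblast methylation at E7.5 among those fixed by the naming rule with a RefSeq entry are given. The first 3 are the lower and the last 3 the higher of their cluster.
Zfp748, chr13:67553103-67553402, minus strand: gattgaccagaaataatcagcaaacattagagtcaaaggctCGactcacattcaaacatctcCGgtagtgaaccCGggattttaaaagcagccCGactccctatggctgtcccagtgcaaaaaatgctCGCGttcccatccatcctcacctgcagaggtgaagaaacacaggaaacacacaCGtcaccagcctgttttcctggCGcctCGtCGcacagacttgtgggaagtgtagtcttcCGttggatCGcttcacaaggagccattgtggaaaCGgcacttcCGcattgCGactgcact
Zfp933, chr4:147848369-147848668, minus strand: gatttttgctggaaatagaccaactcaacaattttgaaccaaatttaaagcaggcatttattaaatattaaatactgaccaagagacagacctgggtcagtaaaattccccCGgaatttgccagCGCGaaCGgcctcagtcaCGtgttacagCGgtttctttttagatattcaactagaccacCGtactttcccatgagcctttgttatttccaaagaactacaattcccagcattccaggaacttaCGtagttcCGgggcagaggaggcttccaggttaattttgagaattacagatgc
Zfp931, chr2:178078376-178078675, minus strand: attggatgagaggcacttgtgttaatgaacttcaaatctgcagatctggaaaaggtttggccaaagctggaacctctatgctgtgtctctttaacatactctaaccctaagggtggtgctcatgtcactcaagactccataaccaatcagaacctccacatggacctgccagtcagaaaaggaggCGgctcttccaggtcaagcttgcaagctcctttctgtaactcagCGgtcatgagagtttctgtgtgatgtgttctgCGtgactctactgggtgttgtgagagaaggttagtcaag
Zfp708, chr13:67097927-67098226, minus strand: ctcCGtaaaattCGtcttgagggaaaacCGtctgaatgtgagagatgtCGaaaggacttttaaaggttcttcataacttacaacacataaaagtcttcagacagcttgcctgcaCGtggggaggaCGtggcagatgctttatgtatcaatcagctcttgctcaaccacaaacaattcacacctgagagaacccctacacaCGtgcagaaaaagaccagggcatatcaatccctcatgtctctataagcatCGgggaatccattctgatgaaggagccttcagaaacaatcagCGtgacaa
Zfp982, chr4:147492167-147492466, plus strand: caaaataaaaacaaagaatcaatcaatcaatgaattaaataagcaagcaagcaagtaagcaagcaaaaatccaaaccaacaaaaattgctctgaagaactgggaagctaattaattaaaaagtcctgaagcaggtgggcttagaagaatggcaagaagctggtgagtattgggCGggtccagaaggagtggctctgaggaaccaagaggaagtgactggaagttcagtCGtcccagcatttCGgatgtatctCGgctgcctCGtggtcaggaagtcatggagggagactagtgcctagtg
Zfp970, chr2:177464492-177464791, plus strand: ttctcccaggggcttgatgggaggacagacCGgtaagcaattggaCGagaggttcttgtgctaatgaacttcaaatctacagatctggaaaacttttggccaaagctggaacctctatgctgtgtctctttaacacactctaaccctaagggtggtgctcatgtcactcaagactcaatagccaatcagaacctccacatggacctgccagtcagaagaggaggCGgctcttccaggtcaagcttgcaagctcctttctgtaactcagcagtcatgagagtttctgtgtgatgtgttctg

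The promoter of Zfp748 holds 15 CG in these 300 bases, and 35.2% of 31396 autosomal RefSeq promoters hold as many or more. Zfp933 and Zfp708 hold 9 each (46.2% of promoters have as many), although their windows lay at 35.3% and 86.3% in the epiblast. Zfp982 holds 5 CG (62.4%) and Zfp931 and Zfp970 hold 3 each (77.0%). The cluster promoters as a group were poor in CG, with a median of 5 in the 65 sequences (4 on chromosome 2, 5 on chromosome 4 and 8 on chromosome 13), where all promoters had a median of 7 and 354 Zfp promoters outside the clusters had 16. Only 10.8% of cluster promoters held 10 or more CG, against 44.0% of all promoters and 71.2% of Zfp promoters outside. Across 55 cluster genes with both values, the number of CG was weakly and inversely related to the epiblast methylation of the promoter window (Spearman's rho of −0.36, a description across genes that share sequence and windows). In the 43 of these genes whose sequence lies inside the window the rho was −0.41. Window length was positively related to the same methylation, with a rho of 0.44 over the 55 genes and 0.57 over the 43. Each printed sequence lies inside its gene's promoter window, but a window is much longer than these 300 bases, so its value is not that of the sequence alone.

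Before the comparisons, the tissue and genotype labels were checked on the start windows of 2 genes outside the clusters. Elf5, whose promoter is known to lack methylation in trophoblast, was, over its whole start window, at 80.4 to 92.6% in E7.5 Epi and at 60.8 to 69.1% in E7.5 ExE, while at E6.5 the 6 Epi libraries (75.2 to 95.2%) and the 4 ExE libraries (69.9 to 85.2%) overlapped. Kcnq1ot1, which starts within a maternal imprint, was at 40% in matDKO/CAST Epi replicate 1 (replicate 3 had no value there) against 66.1 to 94.4% in wild-type Epi, so this check rests on 1 library in Epi. In matDKO/CAST ExE it was at 24.8, 42.9 and 25%, against 58.5 to 86.3% in wild-type ExE. In E7.5 ExE its maternal allele was at 68.3 to 77.3% and its paternal allele at 30.1 to 41.5%. The alleles lay closer together in E7.5 Epi, at 71.7 to 89.4% (maternal, 4 libraries) and 66.1 to 70% (paternal, 3 libraries).

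The clusters were less methylated than like-length windows in the epiblast and slightly more methylated in the ExE on average, at both days in the wild-type crosses. In E7.5 Epi the 895 cluster windows measured in all 8 libraries averaged 73.0 and 70.1% in B6/CAST replicates 1 and 2 and 72.9 and 74.4% in CAST/B6 replicates 1 and 2, giving 72.6% ± 1.80 (SD, n = 4). Like-length windows in the same libraries averaged 74.8% ± 1.77. In E7.5 ExE the cluster windows averaged 59.0 and 56.3% in B6/CAST and 59.0 and 59.5% in CAST/B6, giving 58.5% ± 1.46 against 56.6% ± 1.84 in like-length windows. Every one of the 4 epiblast libraries had its clusters below like-length windows, by 1.79 to 2.43 percentage points, and every one of the 4 ExE libraries had them above, by 0.756 to 4.34 points. The 4.34 points came from CAST/B6 ExE replicate 1, and the other three lay between 0.756 and 1.49 points.

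At E6.5 the same arrangement was seen in 471 windows measured in all 10 wild-type libraries, with a much wider spread. The B6/CAST Epi libraries averaged 64.2, 70.0 and 72.6% and the CAST/B6 Epi libraries 78.2, 76.8 and 75.9%. The B6/CAST ExE libraries averaged 54.0 and 53.8% and the CAST/B6 ExE libraries 65.99 and 63.0%. Epi and ExE overlapped when the crosses were pooled, since the lowest B6/CAST Epi library lay below the highest CAST/B6 ExE library, but within each cross every Epi library lay above every ExE library. The clusters lay 0.655 to 5.25 points below like-length windows in the 6 Epi libraries and 0.881 to 4.28 points above them in the 4 ExE libraries. E6.5 and E7.5 come from tables with different windows, from pools and from single embryos respectively, so the levels stand side by side without a test.

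**Figure D1:**
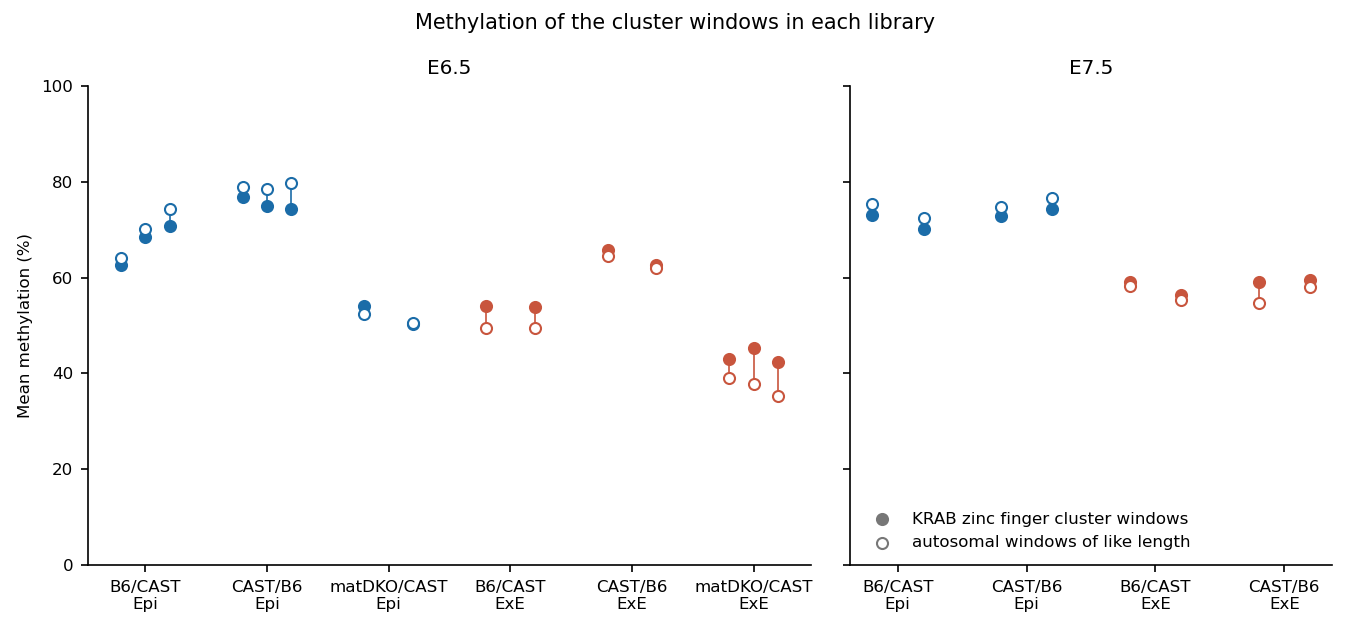
Mean methylation (%, y axis) of the cluster windows (filled circles) and of autosomal windows of like length (open circles) in each library, by cross and tissue, at E6.5 (left, 401 Epi and 501 ExE windows, measured in every library of the tissue, matDKO/CAST included) and E7.5 (right, 895 windows), with a line joining the 2 values of a library. Filled circles lie below open ones in every wild-type Epi library and above them in every ExE library, and the matDKO/CAST libraries lie lowest in each tissue.

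The difference between the tissues was smaller in the clusters than in like-length windows. Epi exceeded ExE by 14.2 points over the cluster windows at E7.5, with a pooled SD between libraries of a group of 1.5 points, against 18.2 points in like-length windows. At E6.5 the values were 13.8 points (pooled SD 2.71) and 18.8 points. Each cluster showed it at E7.5, with 14.5 against 19.9 points on chromosome 2, 12.9 against 16.8 points on chromosome 4 and 15.2 against 18.7 points on chromosome 13. The shortfall relative to like-length windows, 4.03 points at E7.5 and 5.06 points at E6.5, became 2.18 and 2.74 points when window length was disregarded. It came to 3.32 points at E7.5 without CAST/B6 ExE replicate 1.

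Single windows were tested with limma over all autosomal windows measured in every library of the comparison, with Benjamini-Hochberg adjustment at 0.05. At E7.5, 704 of the 895 cluster windows (78.7%) were called higher in Epi, where 82.9% of all 383556 windows tested were, and 2 (0.223%) were called higher in ExE, where 1.3% of all were. At E6.5, 221 of 471 cluster windows (46.9%) were called higher in Epi, against 59.6% of all 250886 windows. With the replicate number as a block the E6.5 count was 63 (13.4%, against 21.3% of all windows called). None of the 471 was called higher in ExE by limma or had an unadjusted p under 0.05 in that direction, against 0.663 and 0.829% of all windows. The 4 Epi libraries lay entirely above the 4 ExE libraries in 569 cluster windows at E7.5 (63.6%), against 73.8% of all windows. When the mean of each library over all autosomal windows was subtracted first, 73 cluster windows (8.16%, against 19% of all) were called higher in Epi and 185 (20.7%, against 20.8% of all) higher in ExE at E7.5. At E6.5 these were 7 (1.49%, against 6.19%) and 31 (6.58%, against 8.73%).

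Window length mattered for where the clusters departed from the rest of the genome. Outside the clusters, ExE methylation rose with window length up to 64.9% at 4 to 6 kb and was lower in longer windows, at 62.4% in windows of 6 to 8 kb, 56.2% at 8 to 12 kb, 48.4% at 12 to 20 kb and 45.6% above 20 kb. Cluster windows were at 59.6, 58.1 and 59.2% in the ExE in the 3 longest classes (224, 92 and 22 windows), above the outside. In classes between 2 and 8 kb they were below it in the ExE, with 58.1 against 60.4% at 2 to 3 kb, 59.6 against 64.7% at 3 to 4 kb, 61.2 against 64.9% at 4 to 6 kb and 60.4 against 62.4% at 6 to 8 kb (48, 69, 190 and 178 windows). In the epiblast the windows of 12 to 20 kb were at 76.5% in the clusters and 77.3% outside. Windows of 4 to 8 kb were lower in the clusters than outside in the epiblast, with 74.2 against 80.3% at 4 to 6 kb and 75.4 against 81.0% at 6 to 8 kb. Windows under 1 kb, which are dense in CpG, averaged 17.6% in the epiblast in 30 cluster windows and 5.46% outside, and those of 1 to 2 kb 69.6% in 42 cluster windows and 42.1% outside. In the ExE these classes were at 15.3 and 61.4% in the clusters and 5.71 and 38.7% outside.

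**Figure D2:**
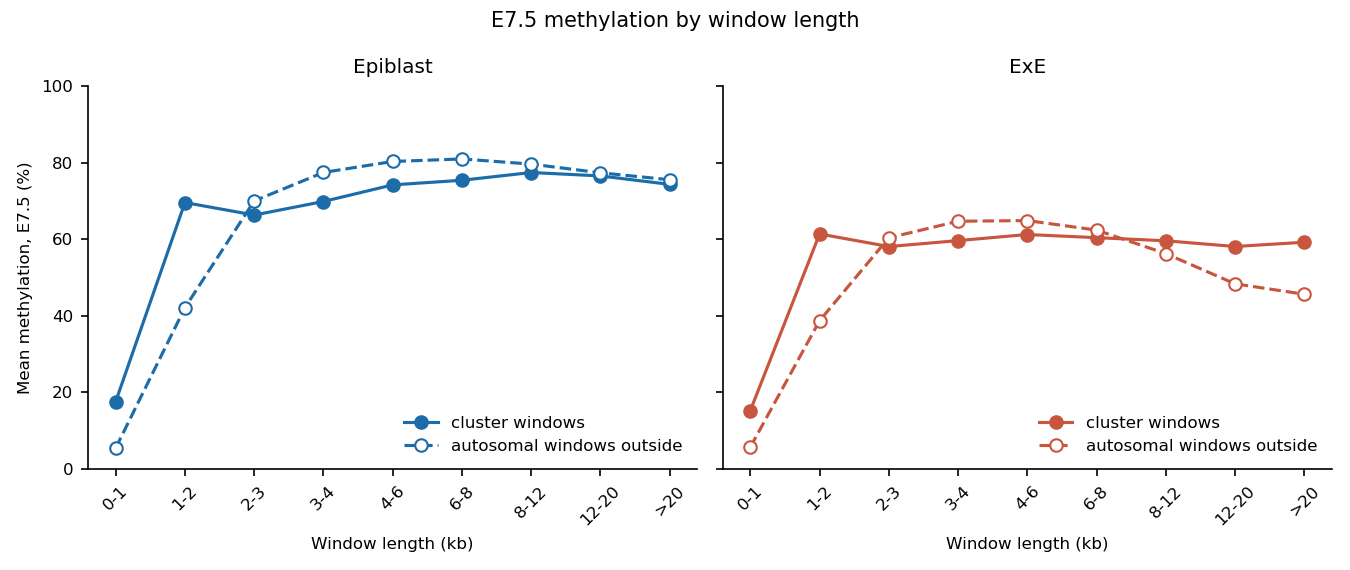
Mean methylation at E7.5 (%, y axis) by class of window length (kb, x axis) in the epiblast (left) and the ExE (right), for cluster windows (filled) and autosomal windows outside (open, dashed); the >20 kb class holds 22 cluster windows. In the ExE the outside windows fall from 64.9% at 4 to 6 kb to 45.6% above 20 kb while the cluster windows stay between 58.1 and 61.2% over the same classes.

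Individual cluster windows covered most of the scale. In the E7.5 epiblast the median window was at 79.1% with a 10th to 90th percentile range of 41.5 to 87.7%, and in the ExE at 61.6% with a range of 34.4 to 78.0%. Windows of intermediate epiblast methylation were more frequent than among like-length windows, with 5.03% of cluster windows at 20 to 40% (like-length 1.92%) and 6.59% at 40 to 60% (2.59%). Windows above 80% made up 45.8% of the clusters and 52.2% of like-length windows. In the ExE the share at 60 to 80% was 48.2% in the clusters and 39.7% in like-length windows, while the share at 40 to 60% was 32.2 and 43.6%.

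**Figure D3:**
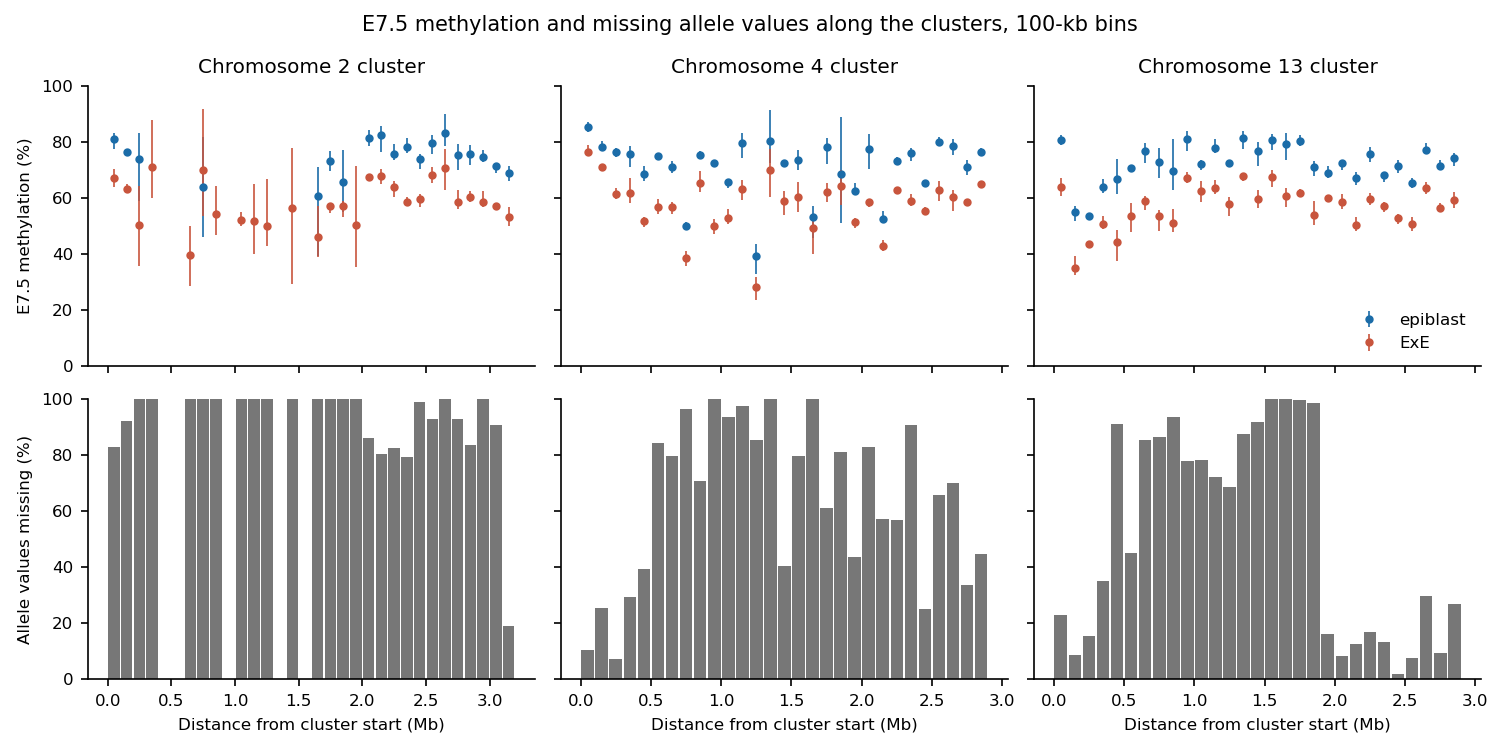
Top, E7.5 methylation (%, y axis) in 100-kb bins along each cluster (distance from the cluster start in Mb, x axis), as the mean of the windows in the bin over 4 Epi or 4 ExE libraries with bars from the lowest to the highest library; a point is absent where no window in the bin was measured in all 4 libraries. Bottom, share of allele values missing (%) in the same bins; gaps on chromosome 2 are bins in which no window has its midpoint. Epi lies above ExE in most bins, and missing allele values reach 100% in the middle of all 3 clusters.

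Along the clusters the methylation was uneven. On chromosome 4 the lowest bin of 100 kb, 1.2 to 1.3 Mb from the cluster start, averaged 39.3% in Epi and 28.4% in ExE over 6 windows, and the highest, at the cluster start, averaged 85.3 and 76.3% over 17 windows. On chromosome 13 the bin from 0.1 to 0.2 Mb was lowest in the ExE, at 34.9% over 10 windows, with 55.1% in Epi. On chromosome 2 the middle of the cluster is covered by few windows, so that its bins from 0.2 to 2 Mb often rest on 1 window.

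At the level of single genes, promoter windows of zinc finger genes ran from low to high methylation. By symbol, 49 of 53 such windows were measured in every E7.5 library, and they averaged 56.7% ± 1.69 in Epi and 44.0% ± 1.24 in ExE (n = 4 each). The clusters differed among themselves, with epiblast means of 60.6% on chromosome 2, 71.3% on chromosome 4 and 44.9% on chromosome 13. Promoter windows of zinc finger genes outside the clusters were far less methylated as they stood (23.1 and 18.7% over 329 windows), and after weighting to the same lengths they averaged 46.5 and 36.5%. The cluster promoters thus lay 10.2 points higher than these in Epi (9.60 to 11.0 over the 4 libraries) and 7.57 points higher in ExE (5.48 to 8.93). With zinc finger genes chosen by sequence the gaps were 6.50 and 4.12 points. Like-length windows of all kinds were higher than the cluster promoters, at 78.1 and 59.96%.

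**Figure D4:**
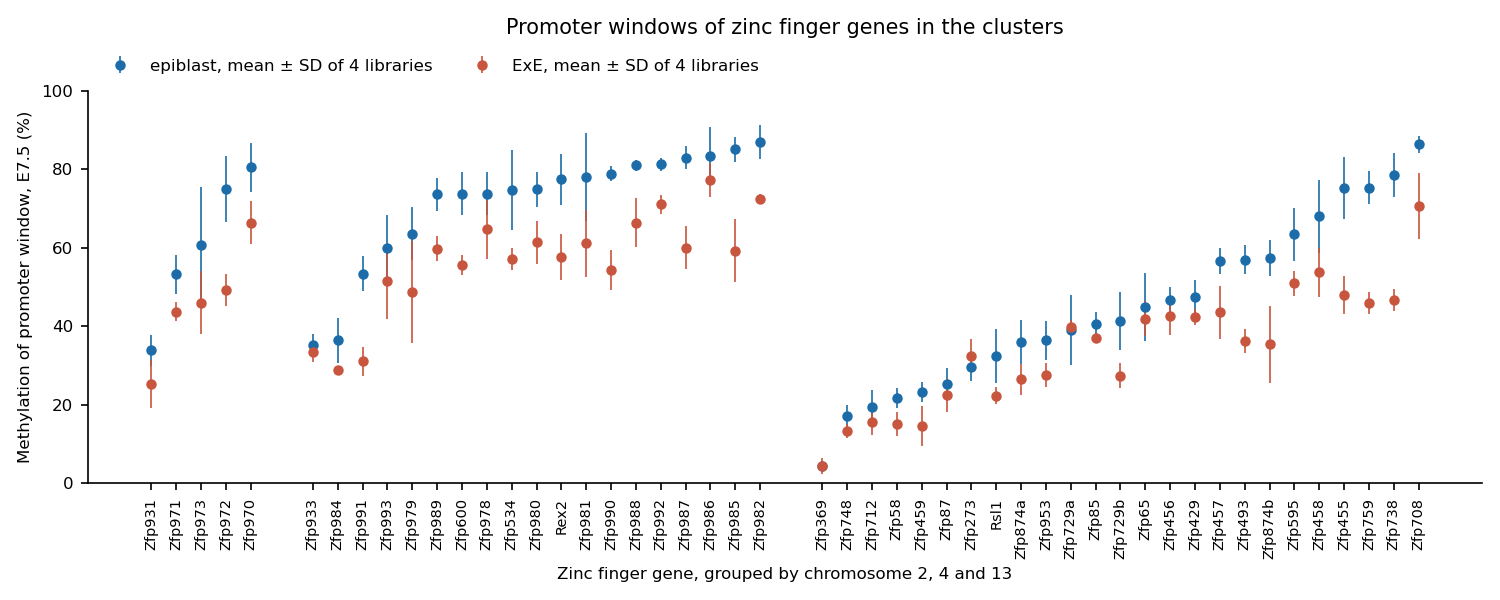
Methylation (%, y axis) of the E7.5 promoter window of each zinc finger gene measured in all libraries (x axis, 5, 19 and 25 genes on chromosomes 2, 4 and 13, ordered by epiblast level within a cluster), as mean ± SD of 4 Epi (blue) and 4 ExE (red) libraries. Epiblast levels run from 4.39% at Zfp369 to 86.9% at Zfp982, and the chromosome 13 genes fill the lower part of the range.

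Of the 54 zinc finger genes named by symbol, 49 had a promoter window with a value in all 8 libraries at E7.5. Epiblast methylation was under 20% for 3 genes, between 20 and 80% for 38 and above 80% for 8. Epi was called higher than ExE for 34 of the 49 (4 of 5 genes on chromosome 2, 15 of 19 on chromosome 4 and 15 of 25 on chromosome 13), and ExE for none (limma with Benjamini-Hochberg adjustment). Of all windows tested, 82.9% were called higher in Epi. The other 5 genes lie on chromosome 2, in windows with a value in some of the libraries.

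On chromosome 13, the Zfp369 window (chr13:65278615-65280300) was the least methylated of these promoters. It was at 4.39, 3.16, 4.56 and 5.43% in the Epi libraries and at 3.01, 3.31, 3.95 and 7.30% in the ExE libraries, so that the tissues overlapped (limma adjusted p = 0.998). The Zfp748 window, whose promoter opens the printed sequences, was at 20.4, 18.1, 14.1 and 15.7% in Epi and 14.6, 13.3, 10.8 and 14.4% in ExE, a difference of 3.78 points that was not called (adjusted p = 0.118). At the other end, the Zfp708 window (chr13:67097810-67102403) was at 85.6, 88.4, 87.7 and 83.7% in Epi and 81.7, 69.5, 70.4 and 61.3% in ExE. All 4 Epi libraries lay above all 4 ExE libraries there, with a difference of 15.6 points (adjusted p = 0.00338). ZFP708 is known as a repressor that binds a class of retrotransposons and keeps them methylated.

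The stretch before Zfp738 gave the largest tissue difference in the chromosome 13 cluster at E7.5. The window just upstream (chr13:67687621-67696825, between genes, 550 bases from Zfp738) was at 78.9, 82.1, 86.8 and 77.2% in Epi and 48.1, 47.7, 35.4 and 36.4% in ExE. Epi was higher by 39.4 points (SE 3.43, limma adjusted p = 8.19e-05), and no libraries of the tissues overlapped. The neighbouring window that holds the Zfp738 start (chr13:67684324-67687620) was at 73.5, 74.5, 81.1 and 85.1% in Epi and 44.7, 50, 44.1 and 48.0% in ExE, a difference of 31.8 points (SE 2.88, adjusted p = 8.52e-05).

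On chromosome 4, the Zfp933 window (chr4:147848024-147852159) was intermediate in both tissues, at 34.4, 33.6, 33.8 and 39.3% in Epi and 35.1, 31.5, 31.0 and 35.9% in ExE. The difference of 1.87 points was within the spread of the libraries (limma adjusted p = 0.475). The Zfp982 window (chr4:147490546-147497319) had the highest epiblast mean of the zinc finger gene promoters measured in the 3 clusters. It was at 82.1, 84.8, 91.9 and 88.8% in Epi and at 72.6, 73.2, 70.6 and 73.2% in ExE, without overlap. In ExE the Zfp986 window had the highest mean, 77.3%. The Zfp991 window was at 53.4% in Epi and 22.4 points lower in ExE.

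Zfp985, also on chromosome 4, had the largest difference of its cluster at E6.5 and differed again at E7.5. Its start window at E6.5 (chr4:147547699-147554053) was at 57.1, 60.3 and 80.9% in B6/CAST Epi, 91.9, 91.2 and 85.3% in CAST/B6 Epi, and 45.6, 38.2, 38.5 and 42.0% in the 4 ExE libraries. The difference with the cross as a term was 36.7 points (SE 6.13, limma adjusted p = 0.00101), and all 6 Epi libraries lay above the ExE libraries. The E7.5 window at this start (chr4:147548201-147553303) was at 86.9, 80.6, 84.7 and 87.9% in Epi and 62.8, 47.2, 63.1 and 63.8% in ExE, a difference of 25.8 points (SE 3.60, adjusted p = 0.000288). A further window of this cluster, chr4:145486954-145494857 between genes and 15902 bases from Zfp990, differed by 32.0 points at E7.5 (SE 3.37, adjusted p = 0.000112).

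On chromosome 2, the Zfp931 window (chr2:178078081-178086368) was at 33.3, 35.4, 28.6 and 38.0% in Epi and 23.5, 33.8, 19.0 and 24.9% in ExE. Epi was called higher by 8.54 points (SE 3.34, limma adjusted p = 0.0386), although the libraries of the tissues overlapped. The Zfp970 window (chr2:177460833-177464871) was at 88.8, 77.2, 74.6 and 81.4% in Epi and 63.5, 61.2, 73.8 and 67.1% in ExE, so that each Epi library was above each ExE library. Between them lay Zfp971, at 53.2% in Epi, and Zfp972, at 74.96%. The largest tissue difference of this cluster at E7.5 was beside Zfp931, in a window 7893 bases from the gene (chr2:178086369-178096786), with 73.1, 75.1, 70.7 and 74.2% in Epi and 38.6, 38.0, 57.4 and 33.2% in ExE. The difference of 31.5 points (SE 4.81, limma adjusted p = 0.000432) was smallest against CAST/B6 ExE replicate 1, the highest ExE library. At E6.5 the window with the largest difference in this cluster lay 3138 bases from Phactr3 (35.0 points, adjusted p = 0.0021).

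Both windows called higher in the ExE at E7.5 were outside the zinc finger genes themselves. An exon window of Phactr3, a regulator of protein phosphatase 1 and actin at the distal edge of the chromosome 2 interval (chr2:178141863-178142943), was at 20.6, 10.2, 13.3 and 14.1% in Epi and 32.8, 28.8, 37.8 and 34.8% in ExE. ExE was higher by 19.0 points (SE 2.97, limma adjusted p = 0.000476) without overlap. The other, on chromosome 4 over the pseudogene Vmn2r-ps15 and Gm13243 (chr4:145774703-145792890), was at 37.4, 50.6, 39.4 and 37.3% in Epi and 51.7, 51.7, 48.0 and 42.7% in ExE. There the tissues overlapped and the adjusted p was 0.0492.

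Windows over zinc finger exons formed the most methylated class of the clusters. The 49 such windows measured at E7.5 averaged 82.4% in Epi and 68.7% in ExE, and 35 of them were above 80% in Epi. Compared with like-length windows of all kinds they were 3.09 points higher in Epi and 12.2 points higher in ExE (9.56 to 15.9 over the 4 libraries). Compared with finger exons outside the clusters, weighted to the same lengths, they were 1.94 points lower in Epi and 2.30 points lower in ExE. The remaining 577 windows, which hold no start of transcription and no finger exon of a gene named by symbol (559 when genes were taken by sequence), were at 75.02% in Epi (like-length 74.6%) and at 61.3% in ExE (like-length 57.5%). The 220 promoter windows of other genes and pseudogenes stood at 67.6 and 52.0%.

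The extremes of the ExE show the range within each cluster. The lowest windows were the start of Phactr3 on chromosome 2 (12.6% in ExE), the start of Gm13244 on chromosome 4 (chr4:145745427-145745763, 0.735%) and a window between genes on chromosome 13 (chr13:65240998-65241613, 0.454%). The highest were between genes on chromosome 2 (chr2:177546699-177548406, 85.4%), within an intron of Zfp981 on chromosome 4 (chr4:146506889-146508703, 86.7%) and between genes on chromosome 13 (chr13:67887743-67892445, 85.4%).

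Maternal loss of DNMT3A and DNMT3B was accompanied by lower cluster methylation in both tissues at E6.5. Over 401 windows measured in all 8 Epi libraries, the matDKO/CAST libraries averaged 54.1 and 50.3% and the B6/CAST libraries 62.6, 68.6 and 70.9%. The matDKO/CAST libraries lay below all B6/CAST libraries, by 15.1 points on average (pooled SD 3.08), against 17.9 points in like-length windows. Over 501 windows in the ExE, matDKO/CAST was at 43.0, 45.2 and 42.3% and B6/CAST at 54.1 and 53.9%, again without overlap. That decrease was 10.5 points (pooled SD 1.51), against 12.2 points in like-length windows.

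The chromosome 2 cluster fell most in the matDKO/CAST epiblast, by 20.6 points over 58 windows, against 14.4 points over 182 windows on chromosome 4 and 13.9 points over 161 windows on chromosome 13. Like-length windows fell by 19.2, 17.0 and 18.5 points, respectively, so chromosome 2 was the cluster that exceeded them; the differences between clusters were not tested. In the ExE the decreases were 11.5, 10.7 and 9.83 points, each smaller than in like-length windows (12.1, 11.9 and 12.4 points). In the matDKO/CAST ExE the clusters lay 3.89, 7.41 and 7.05 points above like-length windows, and in B6/CAST ExE 4.58 and 4.32 points above them. In the matDKO/CAST epiblast they lay 1.63 points above and 0.292 points below.

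Of the 401 windows, 88 (21.9%) were called lower in the matDKO/CAST epiblast, against 23.4% of all 192419 windows, and 1 (0.249%) was called higher, against 0.0291% of all. Both matDKO/CAST libraries lay below all 3 B6/CAST libraries in 195 cluster windows (48.6%, against 49.7% of all), among them 39 of 58 on chromosome 2, 93 of 182 on chromosome 4 and 63 of 161 on chromosome 13. In the ExE no cluster window and no window of the genome was called by limma (100 of 501 cluster windows, 20%, had an unadjusted p under 0.05, against 25.8% of all). The 3 matDKO/CAST ExE libraries lay below both B6/CAST libraries in 218 cluster windows (43.5%, against 48.7% of all). With both wild-type crosses pooled as the control, 93 ExE windows were called lower (18.6%, against 26.3% of all windows called). The epiblast calls did not hold under every setting: none of the 401 was called on the logit scale, with library means subtracted or with a replicate block, and none of all windows was either (90, 65 and 96 of the 401 had an unadjusted p under 0.05). The count in both directions, 89, also depended on single libraries, as did the share of all windows called. It was 14 (3.48%, against 5.44% of all) without the B6/CAST library whose column number matches no sample title, 33 (7.57 and 10.1%) without B6/CAST replicate 3 and 109 (27.2 and 28.8%) without B6/CAST replicate 1. It was 44 (9.15 and 15.2%) without matDKO/CAST replicate 3 and 94 (22.0 and 23.6%) without matDKO/CAST replicate 1. Without CAST/B6 replicates 1, 2 and 3 it was 50, 41 and 46 (12.2, 10.2 and 11.4%, against 14.1, 12.5 and 13.3% of all). The CAST/B6 libraries enter this fit through the estimate of spread.

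Each class of window was lower in matDKO/CAST. Promoter windows of zinc finger genes went from 57.3% ± 5.62 in B6/CAST Epi to 42.8% ± 2.56 in matDKO/CAST Epi (25 windows), and finger exons from 79.6% ± 3.45 to 64.1% ± 4.29 (20 windows). In the ExE the promoter windows were at 41.5% ± 0.326 and 32.4% ± 3.85 (36 windows) and the finger exons at 63.8% ± 3.66 and 52.0% ± 4.52 (28 windows). Of the 25 zinc finger promoter windows, 2 were called lower in the matDKO/CAST epiblast, against 23.4% of all windows.

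The largest single decreases in the matDKO/CAST epiblast were the following windows, one in each cluster. On chromosome 2, a window with an exon of Gm14326, a zinc finger gene by its sequence (chr2:177926167-177945689), was at 76.3, 90 and 77.8% in B6/CAST and 42.8 and 27.3% in matDKO/CAST, a decrease of 46.4 points (SE 7.05, limma adjusted p = 0.0129). On chromosome 4, a window over Zfp979 and Gm13155 (chr4:147608181-147634043) was at 61.1, 75.9 and 87.8% and at 19.8 and 41.6%, a decrease of 44.2 points (SE 9.41, adjusted p = 0.0194). On chromosome 13, a window over the pseudogenes Vmn2r-ps97 and Gm3829 (chr13:65572848-65588675) was at 54.5, 62.5 and 73.8% and at 36.4 and 7.69%, a decrease of 41.6 points (SE 10.2, adjusted p = 0.0269). This last window also had the largest tissue difference of its cluster at E6.5, with wild-type ExE libraries at 25.9, 26.8, 39.7 and 35.1% and Epi higher by 43.5 points (SE 5.44, adjusted p = 0.00046).

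The single window called higher in the matDKO/CAST epiblast lies on chromosome 4 at the start of Gm13166 (chr4:146251651-146263539). It was at 8.57, 0 and 9.46% in B6/CAST, 5.88, 26.5 and 9.52% in CAST/B6, and 53.8 and 34.0% in matDKO/CAST, a difference of 37.9 points (SE 8.36, limma adjusted p = 0.0209). In the ExE the same window was at 4.35 and 38.5% in B6/CAST, at 14.3% in the 1 CAST/B6 library with a value and at 3.85, 5.80 and 0% in matDKO/CAST. A wild-type ExE library thus lay above the lower matDKO/CAST epiblast library. Of its 75-base words, 91.0% recur within the chromosome 4 cluster.

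The reciprocal crosses lay further apart at E6.5 than at E7.5, in the clusters as in like-length windows. At E6.5 CAST/B6 exceeded B6/CAST by 8.02 points in Epi (like-length 9.54) and by 10.2 points in ExE (like-length 13.7), and in each tissue all CAST/B6 libraries lay above all B6/CAST libraries. At E7.5 the differences were 2.12 points in Epi (like-length 1.75) and 1.62 points in ExE (like-length −0.45), with a pooled SD of 1.5 points. The ExE excess over like-length windows of 2.07 points was 0.646 points without CAST/B6 ExE replicate 1 and 3.50 points without CAST/B6 ExE replicate 2. Limma called no window for the cross in either tissue on either day, in the clusters or in the whole genome. At an unadjusted p under 0.05 there were 49 cluster windows in E6.5 Epi (12.2%, all windows 14.2%), 92 in E6.5 ExE (18.4 and 23.3%), 77 in E7.5 Epi (8.6 and 5.8%) and 60 in E7.5 ExE (6.7 and 5.77%).

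Parental alleles could be read for a minority of the cluster windows. Over the 16 allele columns of the E7.5 libraries, 57.2% of cluster windows had no value (50.2 to 67.0%), against 15.4% of like-length windows (9.73 to 26.0%). The clusters differed in this, with 82.9% missing on chromosome 2, 53.7% on chromosome 4 and 48.2% on chromosome 13. Only 174 of 909 windows (19.1%) had a value on both alleles in every library, against 61.9% of windows outside, and 368 (40.5%) had no allele value at all, against 6.62%.

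**Figure D5:**
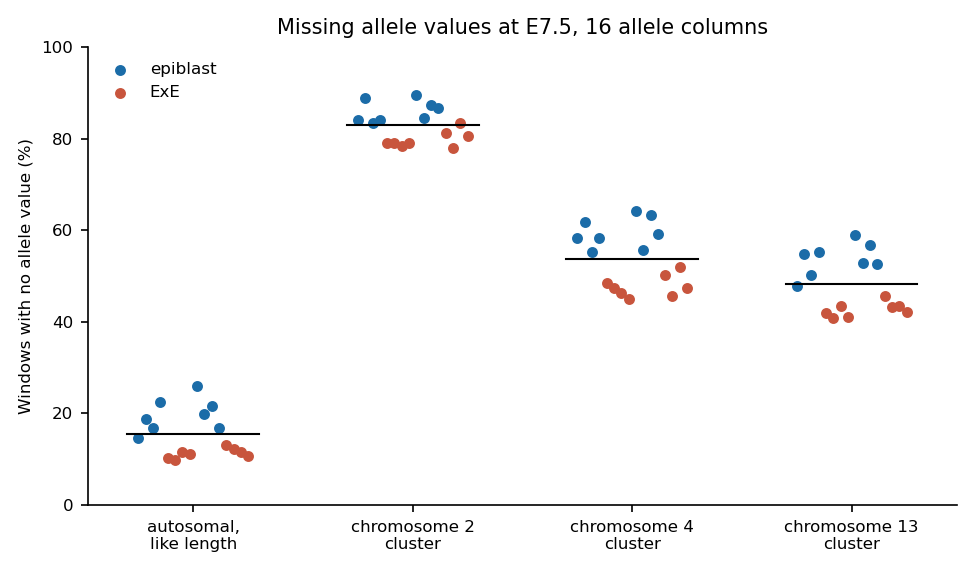
Share of windows with no allele value (%, y axis) in each of the 16 E7.5 allele columns (points, blue for Epi and red for ExE) for autosomal windows of like length and for each cluster, with the mean over the columns as a line. Every column of every cluster, from 40.8% upwards, lies above the highest like-length column at 26.0%.

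The share of missing allele values moved with the share of repeated sequence in a window. In 337 windows with under 10% of 75-base words repeated, 23.5% of allele values were missing, in 217 windows with 10 to 50% repeated, 59.0%, and in 355 windows with 50% or more, 88.1% (Spearman's rho of 0.66 over 909 windows that share libraries and chromosomes). Without allele separation, 0.316% of cluster windows had no value at E7.5, against 0.0567% of like-length windows. At E6.5 the shares were 7.13% (0.296 to 26.6% over 15 libraries) and 5.99%, with 10.9% on chromosome 2, and both were highest in matDKO/CAST Epi replicate 3. The tissue difference at E7.5 was 13.8, 13.4 and 15.0 points in these 3 classes.

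Where both alleles were measured, B6 alleles averaged higher than CAST alleles, and the maternal and paternal alleles averaged close to each other. Maternal minus paternal methylation in Epi was 2.32 and 2.44 points in B6/CAST and −1.98 and −2.16 points in CAST/B6 (176 windows, of which 9 on chromosome 2, 70 on chromosome 4 and 97 on chromosome 13). In ExE it was 2.13 and 2.18 points in B6/CAST and −1.60 and −3.11 points in CAST/B6 (331 windows). The sign followed the strain of the mother in every library. The B6 allele thus exceeded the CAST allele by 2.23 points in Epi and 2.26 points in ExE, against 0.49 and 0.61 points in like-length windows. By cluster the B6 excess over CAST in Epi was 2.52, 2.23 and 2.20 points on chromosomes 2, 4 and 13. In ExE it was −0.51, 3.93 and 1.39 points, on 21, 129 and 181 windows. The chromosome 2 value in ExE rests on 1 library, since it was 1.78 points without B6/CAST ExE replicate 2. On 9 windows in Epi it was 1.25 points without CAST/B6 Epi replicate 1. Over all 3 clusters, maternal minus paternal methylation averaged 0.15 points in Epi and −0.10 points in ExE. In cluster windows with under 10% repeated words the B6 excess over like-length windows was 1.33 points in Epi and 0.691 points in ExE, against 1.73 and 1.64 points in all of them. Reads had been aligned to a GRCm38-derived genome, which is built on C57BL/6, with the known strain differences masked, and the part of the alignment in the strain difference was not tested.

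No cluster window was called for strain or parent by limma, where of all windows none was called for strain and 0.00838% in Epi and 0.00722% in ExE for parent. At an unadjusted p under 0.05 there were 20 of 176 windows for strain in Epi (11.4%, all windows 6.65%) and 49 of 331 in ExE (14.8 and 8.73%). For parent there were 10 windows in Epi (5.68 and 4.87%) and 23 in ExE (6.95 and 6.38%). The B6 allele was higher in all 4 libraries in 26 windows in Epi (14.8%, against 7.89% of all windows) and 49 in ExE (14.8%, against 9.13%), and the CAST allele in 9 and 18 (5.11 and 5.44%, against 6.29 and 6.77%). On chromosome 2 maternal minus paternal methylation averaged 4.13 points in Epi and 4.03 points in ExE, on 9 and 21 windows (like-length −0.12 and −0.072). Both averages depended on single libraries. In Epi the libraries were at 7.47, 5.85, 2.85 and 0.364 points, and the average was 0.635 points without CAST/B6 Epi replicate 1, on 12 windows. In ExE they were at 8.09 and −1.06 points in B6/CAST and 5.12 and 3.95 points in CAST/B6, and the average was 1.74 points without B6/CAST ExE replicate 1 and 6.31 points without B6/CAST ExE replicate 2.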

How the data were processed

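The authors deposited methylation as percent per window for PBAT libraries, in 3 tables: 15 E6.5 columns, 8 E7.5 columns and 16 E7.5 allele columns. Per the submitters' processing notes, reads were trimmed with Trim Galore 0.4.4 and aligned with Bismark 0.20.0 to GRCm38. They were split by parental allele over strain differences, and bisulphite conversion was repeated at E7.5 because the first was poor. Per the study's methods, matDKO/CAST reads went through an added alignment step for the 129 alleles that the mothers carried, which the control libraries did not. Whether the deposited percentages include reads from that step is not given in the sources used here, so its part in the matDKO/CAST differences was not tested. The number of 1 B6/CAST E6.5 Epi column matches no sample title of its group, so it was kept as a library of that group without a replicate number, and 5 columns bear a mark of re-import. Only the columns assigned to these libraries were read. Coverage was not given, so depth and counting error are unknown. Nothing states that libraries of a group came from separate litters, so p-values measure the spread between these libraries.

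The E6.5 and E7.5 tables were analysed separately. Percentages were fitted with limma 3.58.1 (R 4.3.3) over all autosomal windows complete in a fit, with the cross as a term for the tissues and group means otherwise. Allele differences were taken within each library, with an intercept for the parent and a cross term for the strain. Adjustment was by Benjamini-Hochberg at 0.05, in 12 comparisons. The fits were also run on simulated data with independent noise, in which 200 of 20000 windows were changed by 30 points. Far larger shares of windows were called between the tissues, and no result here rests on that trial. Like-length means weight autosomal windows outside the clusters to the members' shares of length classes cut at 1, 2, 3, 4, 6, 8, 12 and 20 kb. Means over the clusters are given without a test. SDs are between libraries; a pooled SD is the within-group one. Zinc finger genes were taken by symbol, since no protein table was at hand, and by translated GENCODE coding sequences as an alternative added after seeing the data. RefSeq promoters are those of GRCm38.p6. Named windows are, in each cluster, the called window with the largest difference in each comparison and direction, the 2 least and 2 most methylated promoter windows of zinc finger genes in E7.5 Epi, and the windows lowest and highest in E7.5 ExE, passing over windows within 50 kb of one already named under the same criterion, cluster and direction. Windows named beside them are neighbours or the same start on the other day. The cluster intervals, gene lists and tests were chosen with earlier results of these data known. Alternatives changed the scale, missing values, size of difference, window membership, control, length classes, cross term, library level, replicate block and single libraries. Python 3.11.15, numpy 2.4.6, pandas 2.3.3 and matplotlib 3.10.9 were used.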

Additional observations from a re-analysis of the deposited data

Results flagged for a closer look

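The cluster windows stood on opposite sides of like-length windows in the tissues, in every wild-type library. At E6.5 the gap averaged −2.44 points in the 6 Epi libraries and 2.62 points in the 4 ExE libraries, and at E7.5 it averaged −2.15 points in the 4 Epi libraries and 1.88 points in the 4 ExE libraries. The difference between the gaps was not tested.

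Maternal minus paternal methylation of the cluster windows had opposite signs in the reciprocal crosses, in every library. In Epi it averaged 2.38 points in B6/CAST and −2.07 points in CAST/B6, and in ExE it averaged 2.15 points in B6/CAST and −2.36 points in CAST/B6. This difference between the crosses was not tested over the windows.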

How the results depend on the processing

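Depth is unknown for every window, so a coverage minimum could not be tried, and windows with few reads weigh as much as others. Windows complete in every library are a selected share of the clusters, a smaller share on chromosome 2 and for alleles. Cluster-wide averages of the cross and parental comparisons rest on 2 libraries a group, except in E6.5 Epi. Leaving a single library in a group assumes that it varies like the rest. Where a value moved, the cause was not tested, except where fewer libraries, a stricter size or another summary is the change itself.

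When calls also had to reach 20 points, 128 cluster windows passed between the tissues at E6.5 (27.2%, against 38.6% of all windows) and 191 at E7.5 (21.3 and 36.4%). With library means subtracted, the counts were 38 and 258, and 0 for matDKO/CAST in Epi. On the logit scale the matDKO/CAST Epi count was also 0. With both crosses pooled as wild type, matDKO/CAST differed in 176 windows in Epi (43.9%, against 47.7% of all) and 93 in ExE (18.6 and 26.3%), with mean differences of −19.1 and −15.6 points. With trend and robust settings 1 window was called for the cross in E7.5 ExE (0.112%, against 0.012% of all).

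With each library summarised by its median over windows instead of its mean, the differences were 17.3 points (tissues, E6.5), 17.6 (tissues, E7.5), −19.7 (matDKO/CAST, Epi), 12.8 (cross, E6.5 ExE), −0.15 (parent, Epi) and 1.37 (strain, Epi). Weighted by length, the tissue differences were 16.7 and 15.7 points and the parent difference in Epi −0.19. With 1 missing library allowed, the parent and strain differences in Epi were 0.34 and 2.41 points. Without length classes, the excess over other windows was −2.74 (tissues, E6.5), −2.18 (tissues, E7.5) and −1.72 points (cross, E6.5 ExE). In windows with under 10% repeated words, an alternative chosen after seeing the data, the excess was 0.77 (cross, E7.5 ExE), 0.046 (parent, Epi), 1.33 (strain, Epi) and 0.69 points (strain, ExE).

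Leaving out single libraries gave 14 to 109 calls for matDKO/CAST in Epi (3.48 to 27.2%, against 5.44 to 28.8% of all windows), 179 to 243 for the tissues at E6.5 (38 to 49.8%, against 48.7 to 61.8%) and 653 to 705 at E7.5 (73 to 78.5%, against 79.2 to 82.9%). The E6.5 ExE cross difference ranged from 8.68 to 11.9 points, the Epi parent difference from −0.090 to 0.35 and its excess from −0.012 to 0.40. The Epi strain difference ranged from 2.12 to 2.43 points and its excess from 1.61 to 1.94, and the E7.5 ExE cross excess from 0.65 to 3.50. Leaving out libraries for single clusters was added after seeing the data.

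Libraries with the same number did not deviate together (correlations of 0.051 and 0.049 between the tissues at E7.5). With the number as a replicate block, 63 cluster windows were called between the tissues at E6.5 (13.4%, against 21.3% of all), 717 at E7.5 (80.1 and 84.2%), and 0 for matDKO/CAST in Epi and ExE and for the cross.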
